A study of Mus musculus with 4 samples.

Results

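The genes described here encode the proteins of the cytosolic ribosome, and their RNA was measured in sorted mouse thymocytes. They were chosen by name only: rows of the authors' deposited comparison whose gene symbol begins with Rpl or Rps and a digit, together with Rplp0, Rplp1, Rplp2 and Rpsa, leaving out pseudogene symbols that carry -ps and the Rps6k kinases. The rule took 82 of the 11536 rows of that table, and of the 43430 genes in the count table. By name and annotation 48 encode proteins of the large subunit and 32 proteins of the small subunit. The other 2 are no ribosomal protein genes. Rps19bp1 encodes a nucleolar protein that binds RPS19 and regulates the deacetylase SIRT1. The row labelled Rpl24 (ENSMUSG00000022601, chr16:55973883-56008913) is named Zbtb11, a zinc finger gene, in the GENCODE M21 annotation, so it is called "the row labelled Rpl24" throughout.

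The RNA came from double-positive (DP, CD4+CD8+) thymocytes, developing T cells that rearrange the T cell receptor alpha chain and that were sorted by FACS from C57BL/6 mice. The knockout group (KO) was 2 mice of genotype Uqcrfs1fl/fl; CD4-Cre+, in which both Uqcrfs1 alleles are floxed and Cre is driven by the CD4 promoter, active from the DP stage and throughout later T cells. The control group was 2 mice whose genotype is labelled WT, while the series text describes heterozygous littermates, so WT names the group only. The sources used here give neither the age of the mice nor whether the controls carried Cre. The product of Uqcrfs1 is the Rieske protein, an iron-sulfur subunit of complex III of the respiratory chain. The comparison of KO with WT asks which transcripts of DP cells differ when that subunit is lost.

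Ribosomal proteins assemble with ribosomal RNA in the nucleolus, and the finished subunits join on messenger RNA in the cytoplasm. Their messenger RNAs are short, abundant and often start with a C followed by a run of pyrimidines, the terminal oligopyrimidine (TOP) motif, through which mTORC1 and the binding protein LARP1 control their translation and stability. Ribosomal protein genes are also known for roles beyond protein synthesis: loss of Rpl22 arrests alpha-beta T cell development, and RPL5 and RPL11 bind MDM2 when ribosome assembly is disturbed.

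The 5′ ends of 8 members are shown because this start is the sequence feature the family is best known for. The first 24 bases of the principal coding transcript were read from the GENCODE M21 annotation on GRCm38 (mm10). Capitals mark the pyrimidine run at the very start of the transcript, which had to be a C and at least 4 more pyrimidines.
Rpl4 (chr9:64173375-64173398, plus strand): CTTTTCCTgtgggagcagccgggt
Rpl32 (chr6:115808724-115808747, minus strand): CTTCCTTCTTCCTCggcgctgcct
Rpl36 (chr17:56613416-56613439, plus strand): CTTCCTgtcccggccgccatcgga
Rpl37 (chr15:5116645-5116668, plus strand): CTCTTCCggtctctttggcctcgc
Rpl37a (chr1:72711290-72711313, plus strand): CTCTTCggacttgggcttgggttc
Rps2 (chr17:24720110-24720133, plus strand): CTTCTTCTTCTTCgggagaacacg
Rps21 (chr2:180257377-180257400, plus strand): CCCTCCTgcccaatagtgctgcgg
Rps24 (chr14:24490718-24490741, plus strand): CTCTTTTCCTCCTCTCCagctccg

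In all, 9 of 82 members (10.98%) had such a start, which compares with 481 of 21819 other coding genes (2.20%) and with 246 of the 11258 other coding genes that entered the test (2.19%). An annotated start can lie a few bases away from the start used in these cells. In the next set, shown for members whose values are given below, the capitals mark the longest pyrimidine run in the first 24 bases, wherever it lies.
Rps29 (chr12:69159163-69159186, minus strand): gTTgtcgcacggcgtacgcgtcac
Rps15 (chr10:80292453-80292476, plus strand): gtaCTTCCTTTTCCgagtaaccgc
Rps27 (chr3:90213628-90213651, minus strand): gCTCCTTTCCggcggtgacgacct
Rpl22 (chr4:152325867-152325890, plus strand): ctgCCTCCTCTgccgccatggcgc
Rpl22l1 (chr3:28805436-28805459, plus strand): gttgcgtaTTTCgcacgctctgcg
Rps27l (chr9:66946086-66946109, plus strand): gCCTCTatcccggaagttgctgag

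Rps15, Rps27 and Rpl22 have pyrimidine runs of 11, 9 and 8 bases that begin 1 to 3 bases inside the annotated start, and so were not counted among the 9. The longest runs of Rps29 and Rpl22l1 were 2 and 4 bases.

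Reads assigned to genes numbered 30408863 to 34080516 per library. Values are given as CPM, a gene's count scaled so that libraries of different depth can be compared. Uqcrfs1 itself read 61.4 CPM in WT 1, 57.2 in WT 2, 15.6 in KO 1 and 18.6 in KO 2. Markers of DP cells summed to 19099 to 20345 CPM in the 4 libraries. Summed markers of other cells, which the most abundant genes dominate, were 1296 to 1382 CPM for mature T cells, 29.5 to 34.1 for B cells, 21.4 to 36.8 for myeloid cells, 145 to 157 for stromal cells and 0.122 to 0.347 for red blood cells. Markers of the earlier double-negative stage summed to 407 and 424 CPM in the WT libraries and to 460 and 529 CPM in the KO libraries, with 9 of 11 tested genes higher in KO. Gene by gene, KO 2 stood apart in several of these lists. It was the highest library for 9 of 11 tested double-negative markers, 9 of 15 mature T cell markers, 3 of 5 B cell markers and 6 of 8 myeloid markers. The median log2 deviation of the mature T cell markers was 0.50 in KO 2 and -0.21 in KO 1, and that of the myeloid markers 0.64 and -0.25. Of the mature T cell markers 11 of 15 were higher in KO (median log2 change 0.28) and of the myeloid markers 7 of 8 (0.37), with 0 called in each list. Without KO 2 these medians turned direction, to -0.15 and -0.14. The median of the double-negative markers was 0.23 with all libraries and 0.06 without KO 2. The part of these other cells in the results was not tested. Library WT 1 stood apart in the ribosomal protein genes, as described next. The value without it is given where it moved a member's printed log2 change by over 1.5 times or turned its direction. In bulk RNA, fewer cells of a type and less RNA per cell cannot be told apart.

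The share of RNA taken by ribosomal protein transcripts in KO cells lay within the spread of the WT libraries. All 82 rows together took 2.53% of gene counts in WT 1, 2.28% in WT 2, 2.28% in KO 1 and 2.37% in KO 2. The Wilson 95% interval, which covers counting error only, ran from 2.53 to 2.54% in WT 1 and from 2.27 to 2.28% in WT 2. WT 1 was the highest library, and both KO libraries lay between WT 1 and WT 2. The group means were 2.41 ± 0.179% in WT and 2.33 ± 0.0639% in KO (SD, n = 2 per group), a KO minus WT difference of -0.078 percentage points. Without WT 1 the difference was 0.049 percentage points, in the other direction. Counts of large-subunit genes were 1.38, 1.40, 1.40 and 1.40 times those of small-subunit genes in WT 1, WT 2, KO 1 and KO 2.

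No member passed the test between KO and WT. In edgeR's quasi-likelihood test, with Benjamini-Hochberg adjustment over the 13281 genes tested, 0 of the 82 members had an adjusted p under 0.05, against 0.0226% (3 genes) of all genes tested, 0.0151% lower and 0.00753% higher in KO. All 82 passed the filter on low counts. At an unadjusted p under 0.05 there were 2 members, Rps29 and Rps15, both lower in KO, against a background of 8.4%. DESeq2 also called 0 members. The smallest adjusted p among the members was 0.551, and the median standard error of a log2 change was 0.06. The authors' deposited table marks 46 of its 11536 rows as changed, and 0 of these are members.

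The fitted log2 changes were small. They ran from -0.16 (Rps29) to 0.12 (the row labelled Rpl24), with a median of -0.05, beside a median of -0.00 over all genes tested. Values were below 0 for 69 members and above 0 for 13. Of the large-subunit genes 40 were lower and 8 higher, with a median of -0.05, and of the small-subunit genes 28 were lower and 4 higher, with a median of -0.05. The 9 members with a start tract had a median of -0.05, and 8 of them were lower, against a median of -0.05 and 61 lower of the other 73. The medians of all members and of each subunit were above 0 when WT 1 was left out, at 0.02 each.

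**Figure D1:**
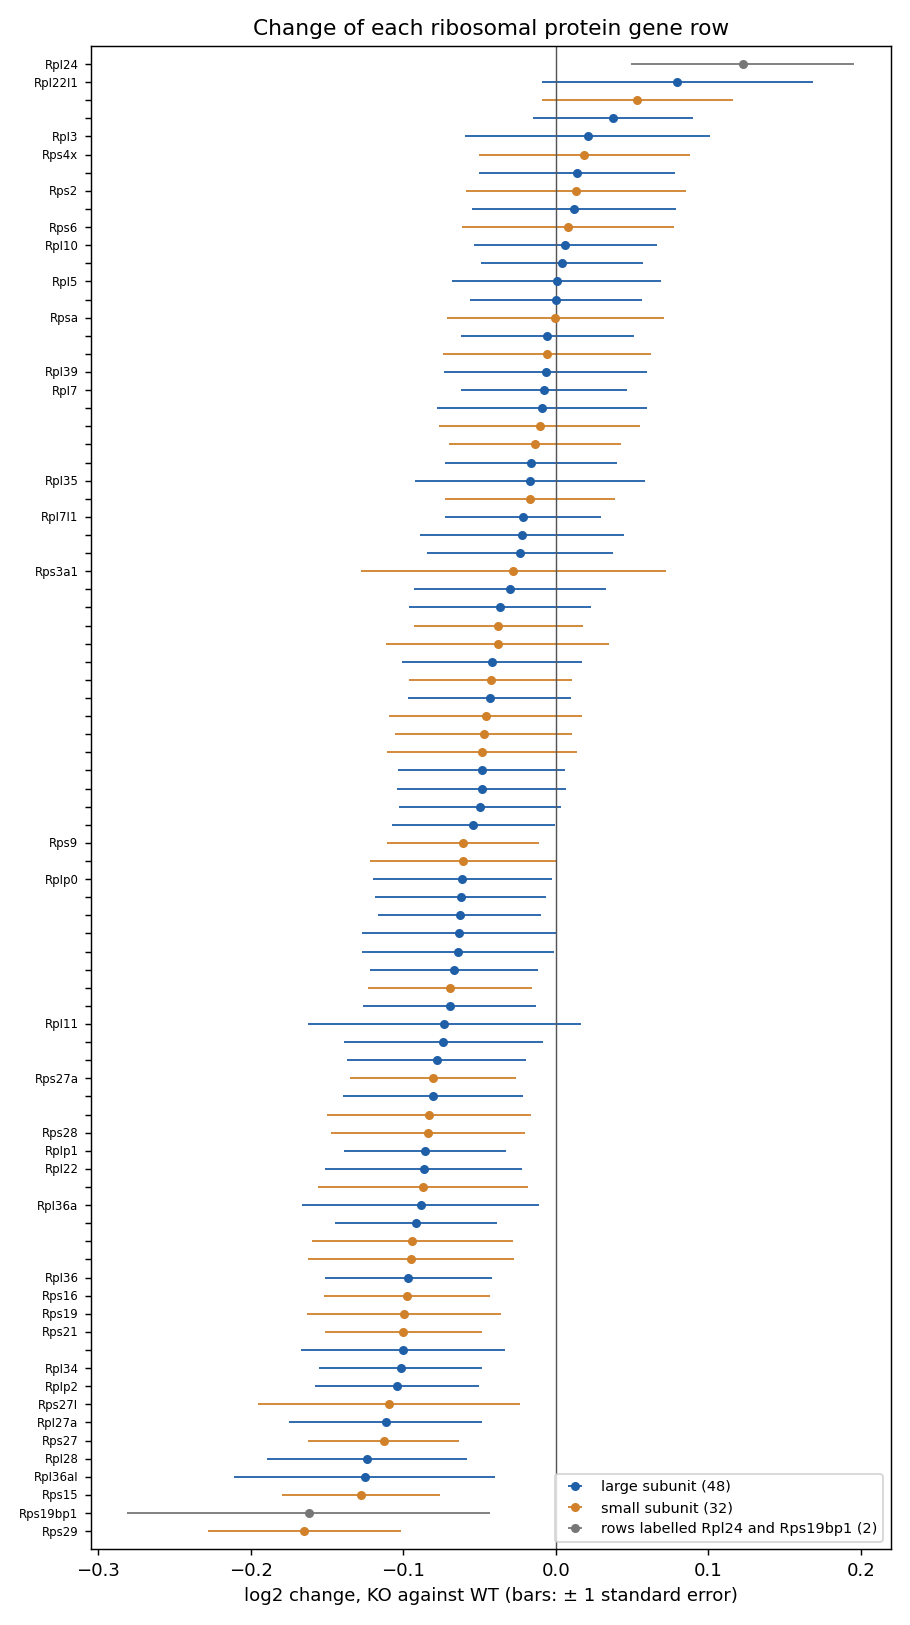
Fitted log2 change (KO against WT, x axis) of each of the 82 rows, ordered by value (named members are labelled), with 1 standard error to either side; large-subunit, small-subunit and the 2 other rows are coloured separately. The values run from -0.16 for Rps29 to 0.12 for the row labelled Rpl24, and 69 lie below 0.

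The libraries within a group differed from each other in the ribosomal protein genes. WT 1 was the highest of the 4 libraries for 75 of the 82 members (91.5%), against 30.4% of all genes tested. The exceptions were Rpl22l1, Rpl26, Rpl38, Rps18 and Rps2, which were highest in KO 2, the row labelled Rpl24, highest in KO 1, and Rpl7l1, highest in WT 2. WT 1 exceeded WT 2 for 80 members (97.6%, against 49.5% of all genes tested), by a median of 1.10-fold. KO 2 exceeded KO 1 for 73 members (89.0%, against 49.7% of all genes tested), and the median ratio of KO 1 to KO 2 was 0.958. The lowest library was KO 1 for 40 members, WT 2 for 37, KO 2 for 4 and WT 1 for 1.

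Set against each gene's mean over the 4 libraries, the median log2 deviation of the members was 0.10 in WT 1, -0.05 in WT 2, -0.05 in KO 1 and 0.00 in KO 2. Both KO libraries were below WT 1 for 76 members, while both were above WT 2 for 38. Reads outside annotated exons made up 17.2% of uniquely aligned reads in WT 1, 18.6% in WT 2, 20.6% in KO 1 and 19.9% in KO 2, so the lowest share also belonged to WT 1. What HTSeq counted as not uniquely aligned was 24.7% of its aligned total in WT 1 and 23.2 to 23.6% in the other libraries. That count can include the same read more than 1 time, so it is no share of reads. The part of these shares in the level of WT 1 was not tested.

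**Figure D2:**
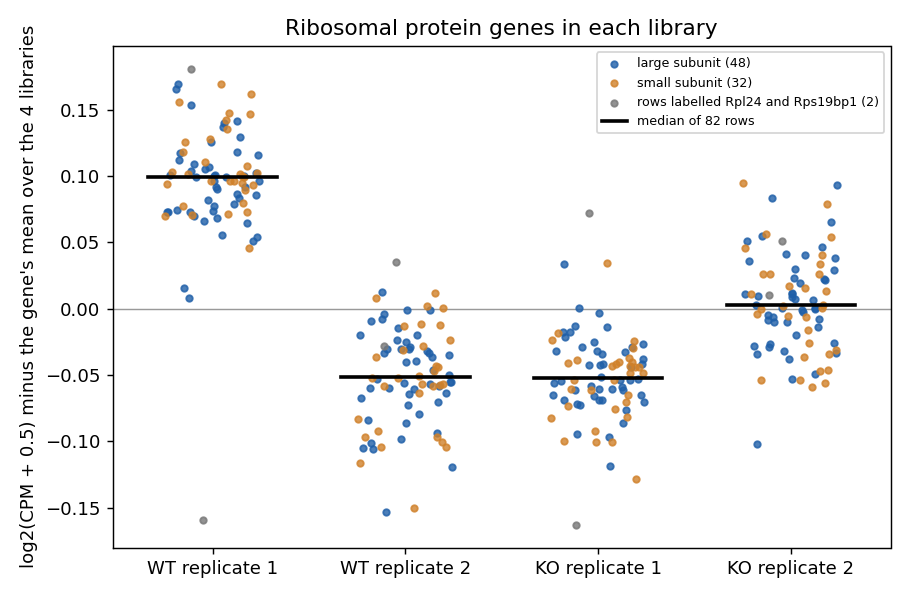
Log2(CPM + 0.5) of each of the 82 rows minus its own mean over the 4 libraries (y axis), by library (x axis), with 1 point per row and the median as a bar. The medians are 0.10 in WT 1, -0.05 in WT 2, -0.05 in KO 1 and 0.00 in KO 2.

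Leaving out 1 library moved the whole family. Without WT 1 the median log2 change of the members was 0.02, with 31 lower and 51 higher, 0 called (background 0.297%) and 7 at an unadjusted p under 0.05 (background 8.27%). Without WT 2 the median was -0.12, with 81 lower and 1 higher. In that fit edgeR's quasi-likelihood test called 8 members, all lower in KO, against 2.65% of all genes, and 57 had an unadjusted p under 0.05 against 19%. Among the 8, at adjusted p of 0.0284 to 0.0456, were Rpl27a, Rpl28, Rpl36a, Rps15, Rps26 and Rps29. The 8 were called only with WT 1 as the sole control, which the fit assumes to vary like the KO group.

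Leaving out a KO library moved the members less. Without KO 1 the median was -0.03 (53 lower, 29 higher) and without KO 2 it was -0.08 (79 lower, 3 higher), with 0 members called in each against backgrounds of 0.387% and 0.322%. At an unadjusted p under 0.05 there were 0 members without KO 1 (background 5.99%) and 1 without KO 2 (background 4.76%). The median over all genes tested lay between -0.00463 and 0.00172 in these 4 fits.

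**Figure D3:**
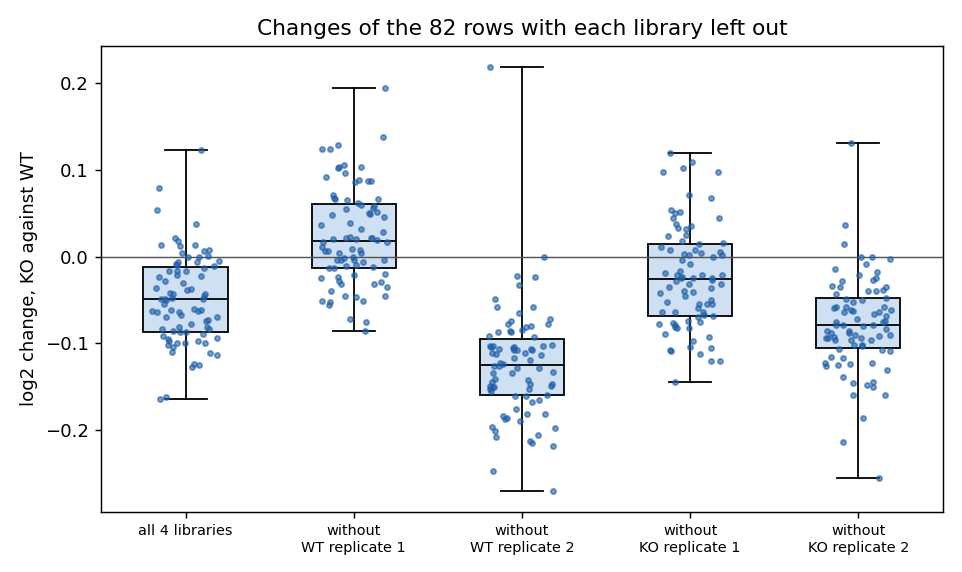
Fitted log2 changes of the 82 rows (KO against WT) with all libraries and without each library in turn; points are rows, boxes span the quartiles, whiskers the full range and the line in each box is the median. The median is -0.05 with all libraries, 0.02 without WT 1, -0.12 without WT 2, -0.03 without KO 1 and -0.08 without KO 2.

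For 12 members (14.6%) both KO libraries were below both WT libraries, against 20.1% of all genes tested, and for 1 row, the one labelled Rpl24, both were above, against 20.4%. The 12 were Rpl7l1, Rpl13a, Rpl27a, Rpl34, Rpl36, Rplp2, Rps15, Rps16, Rps21, Rps27, Rps27a and Rps29. Rps29 and Rps15 had the smallest unadjusted p of the members.

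Rps29 encodes a small zinc-binding protein of the small subunit. Rps29 (ENSMUSG00000034892, chr12:69157722-69159186, minus strand, mm10) stood at 378 CPM in WT 1, 338 in WT 2, 309 in KO 1 and 330 in KO 2. Both KO libraries were below both WT libraries, and KO 2 lay close to WT 2. The WT mean was 358 ± 28.3 CPM and the KO mean 319.8 ± 14.8 CPM (SD, n = 2 per group), and the log2 change was -0.16 (SE 0.06, adjusted p = 0.551 in edgeR's quasi-likelihood test). It ran from -0.25 to -0.09 when 1 library was left out. The authors' deposited table gives Rps29 a log2 fold change of -0.17 and an unadjusted p of 0.0178.

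Rps15, a protein of the small subunit's head near the decoding site, stood at 478 CPM in WT 1, 443 in WT 2, 418 in KO 1 and 424 in KO 2. It (ENSMUSG00000063457) lies at chr10:80292453-80294114 on the plus strand. The groups did not overlap, and the log2 change of Rps15 was -0.13 (SE 0.05, adjusted p = 0.571 in edgeR's quasi-likelihood test), or -0.19 to -0.08 when 1 library was left out. Rps27, a zinc finger protein of the small subunit (ENSMUSG00000090733, chr3:90212725-90213615, minus strand), stood at 341 and 321 CPM against 304 and 308 CPM. Its groups did not overlap either, and its log2 change was -0.11 (SE 0.05, adjusted p = 0.594 in the same test), or -0.07 without WT 1.

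The next members by p had differences of similar size. Rpl28, a large-subunit protein, stood at 300 and 263 CPM in WT and 252 and 264 CPM in KO (log2 change -0.12), so KO 2 was above WT 2. Rpl27a, also of the large subunit, stood at 152 and 134 against 132 and 133 CPM (-0.11), and Rpl34 at 254 and 236 against 225 and 232 CPM (-0.10). In both, WT 1 was the highest library and both KO libraries lay below both WT libraries. Rps21, which helps mature the small subunit, stood at 200 and 187 against 182 and 179 CPM (-0.10). Rps16 stood at 216 and 199 against 195 and 193 CPM (-0.10), and Rpl36 at 107 and 99.7 against 96.9 and 96.2 CPM (-0.10). The log2 change shrank without WT 1, to -0.03 for Rpl28, -0.02 for Rpl27a and -0.05 for Rpl34, and to -0.06 for Rps21, -0.04 for Rps16 and -0.05 for Rpl36. In Rps21, Rps16 and Rpl36 KO 2 was the lowest library, unlike in most members.

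The stalk of the large subunit, which recruits the elongation factors, is built from RPLP0, RPLP1 and RPLP2. Rplp0 stood at 991 and 899 CPM in WT and 881 and 930 CPM in KO (log2 change -0.06), and Rplp1 at 547 and 515 against 485 and 515 CPM (-0.09). Rplp2 stood at 382 and 352 against 337 and 345 CPM (-0.10). Of these only Rplp2 had groups that did not overlap. In all of them WT 1 was the highest library and KO 1 the lowest. The log2 changes without WT 1 were 0.01 for Rplp0, -0.05 for Rplp1 and -0.05 for Rplp2.

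Members with known links to signalling or disease gave small differences. Rps6, whose protein is the classical substrate of the S6 kinases, stood at 250 and 218 CPM in WT and 227 and 243 CPM in KO (log2 change 0.01). Rpsa, the small-subunit protein also known as the laminin receptor, stood at 503 and 436 against 451 and 487 CPM (-0.00). In both, the KO libraries fell between the WT libraries, and without WT 1 the log2 change was 0.11 for Rps6 and 0.10 for Rpsa. Rps19, the gene most often mutated in Diamond-Blackfan anaemia, stood at 174 and 156 against 150 and 159 CPM (-0.10). Rpl5 stood at 319 and 276 against 291 and 305 CPM (0.00), and Rpl11, its partner in binding MDM2, at 322 and 267 against 293 and 267 CPM (-0.07). For these partners the libraries were ordered differently: KO 2 was above KO 1 in Rpl5 and below it in Rpl11. Without WT 1 the log2 change was -0.02 for Rps19, 0.10 for Rpl5 and 0.06 for Rpl11.

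None of the 10 members with the smallest p was among the 5 that differed most between the WT libraries or the 5 that differed most between the KO libraries. Between the WT libraries the largest ratios of WT 1 to WT 2 were 1.25 for Rps3a1, 1.21 for Rpl11, 1.19 for Rpl36a, 1.17 for Rpl22l1 and 1.17 for Rpl35. Rps3a1, a small-subunit protein, stood at 417 and 333 CPM in WT and 379 and 357 CPM in KO, so both KO libraries lay between the WT libraries. The log2 change was -0.03 for Rps3a1 and -0.02 for Rpl35, and 0.14 and 0.10 without WT 1. Between the KO libraries the 5 largest differences in log2(CPM + 0.5) belonged to Rps19bp1, Rps2, Rpl3, Rpl11 and Rps28, with ratios of KO 1 to KO 2 of 0.883, 0.884, 0.893, 1.10 and 0.921. Rpl38, outside these 5, also had a ratio of 0.921. Rpl11 was thus among the 5 most variable members in both groups. Rps19bp1 stood at 14.5, 12.4, 11.3 and 12.8 CPM in WT 1, WT 2, KO 1 and KO 2 (log2 change -0.16, or -0.05 without WT 1).

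The row labelled Rpl24 went against the family. It stood at 47.0 and 53.8 CPM in WT 1 and WT 2 and at 55.3 and 54.5 CPM in KO 1 and KO 2, with WT 1 the lowest library (log2 change 0.12, SE 0.07, adjusted p = 0.672 in edgeR's quasi-likelihood test). Its log2 change without WT 1 was 0.02. The row that GENCODE M21 names Rpl24 (ENSMUSG00000098274, chr16:55966275-55971435) is written in capitals in the authors' deposited table and so falls outside the rule. It stood at 10.4 CPM in WT 1, 10.5 in WT 2, 9.33 in KO 1 and 10.4 in KO 2 (log2 change -0.09, SE 0.11). Without the row labelled Rpl24 and Rps19bp1, 68 of the other 80 members were lower and 12 higher, with the same median of -0.05.

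Fau and Rack1, ribosomal proteins that the name rule misses, had log2 changes within the range of the members. Fau, a fusion of a ubiquitin-like protein with a small-subunit protein, stood at 229 and 216 CPM in WT and 197 and 211 CPM in KO (log2 change -0.12, SE 0.06, adjusted p = 0.608 in edgeR's quasi-likelihood test). Its groups did not overlap. Rack1, a scaffold protein on the small subunit, stood at 1010 and 905 against 939 and 986 CPM (0.01, or 0.08 without WT 1), with overlapping groups. The member Rps27a, a fusion of ubiquitin with a small-subunit protein, stood at 256 and 235 against 231 and 233 CPM (-0.08, or -0.02 without WT 1).

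Levels per transcript length differed widely between members, although the ribosome holds the proteins in nearly equal numbers. Mean CPM per kb of principal coding transcript over the 4 libraries ranged from 10.7 to 1033 with a median of 265. Leaving out the row labelled Rpl24, Rps19bp1 and the paralogues Rpl7l1, Rpl36al and Rpl22l1, the lowest level was 63.3, that of Rps15a. Its principal transcript, at 5179 bases, is the longest of the members. Each level rests on 1 annotated transcript per gene, and is too low where these cells use a shorter one. It is also too low where the gene model on which the authors counted reads is shorter than that transcript. The deposited gene length of Rps27 is 255 bases, against 345 for its principal transcript, and that of Rplp1 is 495 against 499. The order of Rps27 and Rplp1 therefore depends on the length used. By principal transcript length the highest level per kb was that of Rplp1, at 1095, 1031, 972 and 1032 CPM per kb in WT 1, WT 2, KO 1 and KO 2. Rps27 followed with 989, 930, 881 and 893, then Rps15 with 956, 885, 837 and 848, Rps29 with 970, 868, 793 and 847, and Rps9 with 879, 830, 806 and 833 CPM per kb. The ranges of neighbours in this order overlap, so their order is not fixed by these libraries.

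The lowest mean levels per kb were those of the row labelled Rpl24 (10.7), Rps19bp1 (15.2), Rpl7l1 (30.5), Rpl36al (53.0) and Rpl22l1 (56.5 CPM per kb). The first 2 encode no ribosomal protein and the other 3 are paralogues of more abundant members. The transcripts had a median length of 844.5 bases, and 54 of 82 were at most 1000 bases long.

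Most members share sequence with other annotated genes, which limits what a level means. Of all 50-base windows of a member's principal transcript, a median of 51.1% also occurred, on either strand, in the exons of another annotated gene. The share exceeded 50% for 42 members, reached 98.6% for Rps27, and was 0% for 2 members, among them Rps19bp1. The median member shared windows with 10 other genes. Windows shared only with a gene annotated over the same place were included, and reads from these need not align elsewhere. Reads from windows that occur at another place may align to more than 1 place and be lost from the count. Differences between members in level are therefore uncertain. Across the 82 members the log2 level per kb and the shared percentage had a Pearson r of 0.26 and a Spearman rho of 0.16, and the log2 change and the shared percentage an r of 0.19 and a rho of 0.21. These are descriptions over genes of the same libraries, which are not independent replicates.

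**Figure D4:**
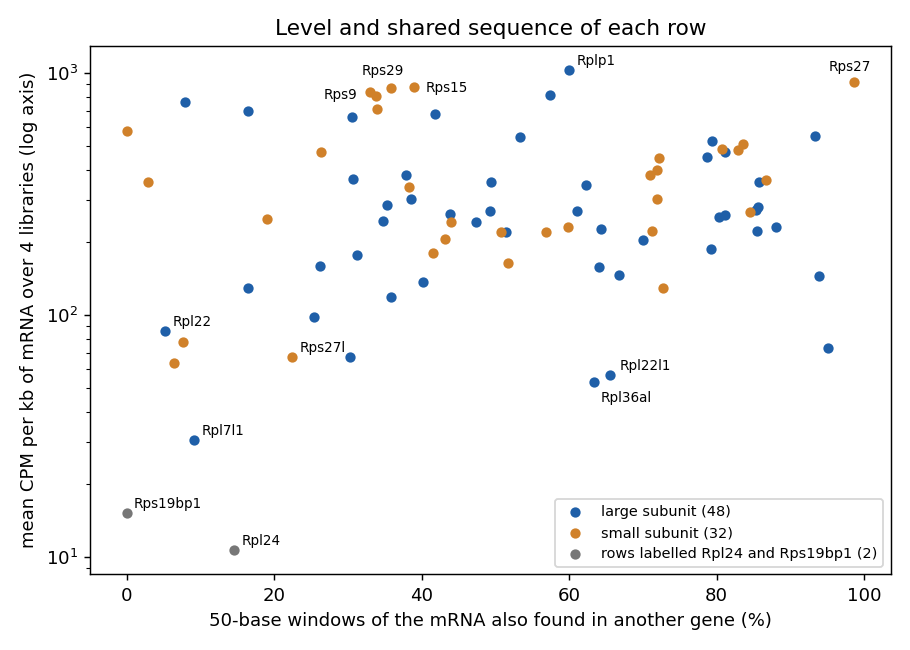
Mean CPM per kb of principal transcript over the 4 libraries (y axis, log scale) against the percent of 50-base windows of the transcript also found in another gene (x axis), 1 point per row of the rule. Rplp1 is highest at 1033 CPM per kb, Rps27 has the largest shared part at 98.6%, and the row labelled Rpl24 is lowest at 10.7 CPM per kb.

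The exons of 39 members overlapped those of another gene, on the same strand for 28 and on the opposite strand for 20. Windows within such overlaps are part of the shared percentages above. Reads set aside as ambiguous between genes were 0.865 to 0.891% of uniquely aligned reads per library, and the genes they came from are not given. The strand setting of the counting is not stated in these sources. How far overlaps changed the counts of these members is therefore not known.

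The paralogue pair Rpl22 and Rpl22l1 is given in full for its known role in T cells. Rpl22 encodes an RNA-binding protein of the large subunit that alpha-beta T cell development requires, and Rpl22l1 its paralogue, which can take its place in the ribosome. Rpl22 (ENSMUSG00000028936, chr4:152325742-152334071, plus strand) stood at 192 and 170 CPM in WT and 167 and 175 CPM in KO. Rpl22l1 (ENSMUSG00000039221, chr3:28805436-28807424, plus strand) stood at 32.7 and 27.9 against 31.1 and 33.00 CPM. For each gene the groups overlapped. The log2 change was -0.09 (SE 0.06, adjusted p = 0.724) for Rpl22 and 0.08 (SE 0.09, adjusted p = 0.819) for Rpl22l1 in edgeR's quasi-likelihood test. These became 0.00 and 0.19 without WT 1.

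Per kb of transcript, the level of Rpl22l1 was 63.2% and 61.0% of that of Rpl22 in WT 1 and WT 2 and 69.4% and 70.2% in KO 1 and KO 2. The group means of this ratio were 62.1 ± 1.56% and 69.8 ± 0.541% (SD, n = 2 per group), and the groups did not overlap. The exact two-sided permutation p was 0.333, the smallest that 2 against 2 libraries can give. Scaling between libraries cancels in this ratio. Rpl22 shared 5.2% of its windows with other genes and Rpl22l1 65.6%.

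**Figure D5:**
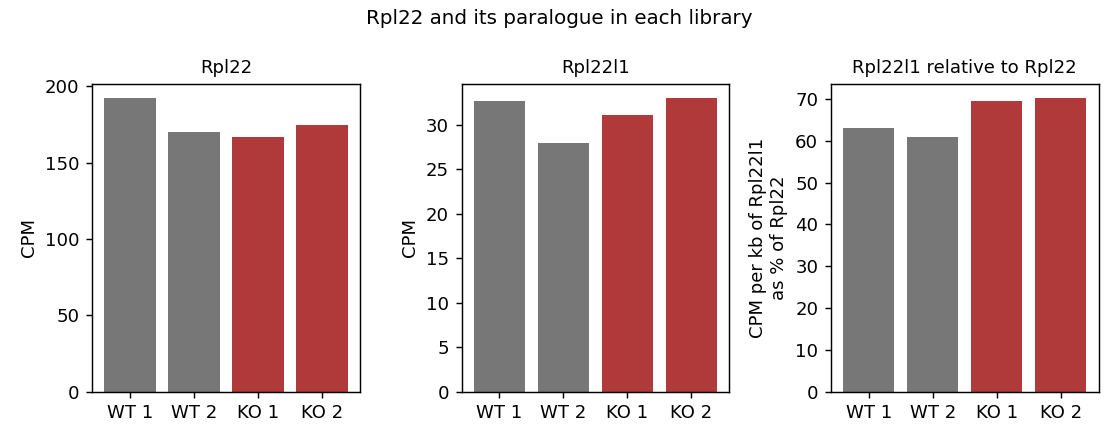
Bars from 0 give, on the y axes, the CPM of Rpl22 and Rpl22l1 in each library and the level per kb of Rpl22l1 as a percent of that of Rpl22. The ratio is 63.2 and 61.0% in the WT libraries and 69.4 and 70.2% in the KO libraries.

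Of 8 paralogue pairs examined, 7 had a transcript length for both genes, and in 2 of these, Rpl22 with Rpl22l1 and Rpl3 with Rpl3l, the ratio did not overlap between groups. Among single genes 40.5% did not overlap in either direction, so 2 of 7 is no more than that background. Rpl3l, the muscle paralogue of Rpl3, had only 9, 2, 13 and 16 counts in WT 1, WT 2, KO 1 and KO 2. Rpl7l1 stood at 5.39 to 5.89% of Rpl7 per kb, Rpl36al at 22.6 to 24.7% of Rpl36a, and Rps27l, a p53 target, at 6.94 to 7.56% of Rps27. The groups overlapped in each of these ratios. Rpl10l, a testis paralogue, had 0, 0, 0 and 2 counts, Rpl39l had 41, 6, 5 and 26, and Rps4l had 31, 20, 50 and 29. Rpl7l1 itself, at 79.9 and 80.2 CPM in WT and 78.7 and 79.0 CPM in KO, varied least of all named members between libraries.

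Genes that make and regulate ribosomes were compared with the family. A list named for the TOP motif holds translation factors, host genes of small nucleolar RNAs and others such as Vim and Npm1. By the start rule used above, 2 of 23 of its genes examined (8.70%) had such a start. In this list 18 of 30 tested genes were higher and 12 lower, with a median log2 change of 0.03. WT 1 was the highest library for 12 of them and KO 2 for 14. Snhg12, such a host gene, stood at 18.1 and 18.4 CPM in WT and 20.4 and 22.2 CPM in KO (log2 change 0.22), and Eif4a2, an RNA helicase, at 344 and 369 against 390 and 379 CPM (0.11). In both genes the groups did not overlap, with the KO libraries higher, and without WT 1 the log2 change of Eif4a2 was 0.06. Without WT 1 the median of the list was 0.07 and without WT 2 it was -0.03.

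Ribosome assembly factors were split evenly: 30 of 63 were higher and 33 lower, with a median of -0.01. Nop10, a core protein of the particles that pseudouridylate ribosomal RNA, stood at 39.7 and 40.5 CPM in WT and 31.1 and 33.8 CPM in KO. Its groups did not overlap, and its log2 change was -0.31 (SE 0.07, adjusted p = 0.402 in edgeR's quasi-likelihood test). Imp3, of the small-subunit processome, had a log2 change of -0.15 (-0.09 without WT 1). Of 20 genes of RNA polymerase I transcription 9 were higher and 11 lower (median -0.00), among them the polymerase subunit Znrd1 at -0.18 and the promoter factor subunit Taf1d at 0.18. No gene of these lists passed the test, although Nop10 did with the likelihood ratio test and without a filter.

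Of 28 initiation factors 12 were higher and 16 lower (median -0.01), with Eif4g3 at 0.09 (0.05 without WT 1) and Eif1a at 0.14. Of 16 chaperones and quality control factors of ribosomal proteins 9 were higher and 7 lower (median 0.01), with the ribosome rescue factor Pelo at -0.23 and the ubiquitin ligase Ube2o at 0.12. Of 23 regulators 12 were higher and 11 lower (median 0.01), with Sp1 at 0.10 and Mdm4 at 0.09 (0.04 without WT 1). Myc, a transcription factor that drives ribosome production, stood at 40.0 and 36.3 CPM in WT and 31.9 and 40.1 CPM in KO (-0.08), with the highest and the lowest value both in KO, and -0.02 without WT 1. Larp1, which binds the TOP motif, had a log2 change of 0.02, or 0.01 without WT 1. The number called was 0 in each of these lists.

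Mitochondrial ribosomal proteins, which build the separate ribosome that translates the transcripts of mitochondrial DNA, had lower values in KO for 64 of 78 tested genes and higher values for 14, with a median of -0.07. For 43 of the 78 (55.1%) both KO libraries were below both WT libraries, against 20.1% of all genes tested and 14.6% of the cytosolic members. Among tested coding genes with transcripts of at most 1000 bases, described next, the share was 42.9%. Those short genes were not cleared of mitochondrial ribosomal protein genes. The median of the mitochondrial list was -0.06 without WT 1 and -0.11 without WT 2, and that of the cytosolic members 0.02 and -0.12. The difference between the lists was not tested. Mrpl33 stood at 65.6 and 77.5 CPM in WT and 47.8 and 49.3 CPM in KO (log2 change -0.56, adjusted p = 0.115 in edgeR's quasi-likelihood test) and Mrpl28 at 46.8 and 44.1 against 38.8 and 38.8 CPM (-0.23). In both the groups did not overlap, and no gene of the list passed the test. Mrpl33 did pass with DESeq2, the likelihood ratio test, no filter, the replicate block and without each library in turn, always lower in KO.

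Short transcripts in general also had lower values in KO. Among 645 tested coding genes with a principal transcript of at most 1000 bases and outside the family, 500 were lower and 145 higher, with a median of -0.10, against 0.00 for the 10613 longer ones. WT 1 was the highest library for 59.2% of the short genes and for 30.02% of the longer ones. Without WT 1 the median of the short genes was -0.06. That of the members was 0.02. Both KO libraries were below both WT libraries for 42.9% of the short genes, against 14.6% of the members. KO 2 exceeded KO 1 for 42.8% of the short genes, against 89.0% of the members. Most transcripts of the family are short too, and the part of transcript length in its values was not tested.

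The promoters of the members were read from RefSeq windows on GRCm38.p6, from 250 bases before to 50 bases after each annotated start, which held 60 of the 80 ribosomal protein symbols. The core of the ETS factor motif, CCGGAAG on either strand, was in 25 of the 60 (41.7%), against 9.93% of all 27025 symbols in the table and 21.4% of the 9505 that were tested. The letters TATAAA, on either strand, were in 7 (11.7%), against 15.7% and 8.03%. The 2 strings cannot overlap each other. Such a match describes these letters in this window and is not a binding site.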

How the data were processed

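The authors used Trimmomatic 0.33, STAR 2.5.2 on mm10, HTSeq and edgeR, per the submitters' processing notes. The sources used here do not give the counting mode, strand or annotation release. The authors deposited raw counts per gene for the 4 libraries, 30408863 to 34080516 per library, and reads assigned to no gene were left out. Their deposited table also holds CPM values, log2 fold changes, a likelihood ratio score, p-values with an adjusted form, gene lengths and marks of changed genes, per the file headers.

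Counts were tested with edgeR 4.0.16 (R 4.3.3): filterByExpr (minimum count 10, minimum total 15), TMM scaling, a robust quasi-likelihood fit of group alone, and Benjamini-Hochberg adjustment over 13281 genes at 0.05. CPM values use TMM-scaled library totals, and the standard error was taken from the F statistic, as log2 change over its root. The script was tested on simulated data. Values of some members are not reported here. Lists of genes were described by counts and medians, with no test. Alternatives were DESeq2 1.42.0, limma-voom (limma 3.58.1), other scalings and filters, a replicate block, and leaving out each library. Transcript lengths, starts and shared 50-base windows came from GENCODE M21 principal transcripts. Gene coordinates came from the authors' count table. These 2 annotations differ in places, so a printed start can lie outside the printed gene interval, as for Rps27. Named members were the 10 with the smallest p, the 5 highest and 5 lowest in level per kb, the 5 most different between libraries of each group, 8 paralogue pairs, members known by role, and the 2 genes of each other list with the smallest p. The members, lists and rules were chosen with earlier results of these data known. The labels number replicates but tie no animals together, and each group holds 2 libraries, so p-values rest on 2 animals per group.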

Additional observations from a re-analysis of the deposited data

How the results depend on the processing

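With 2 libraries per group no exact test over libraries can pass 0.05, and 1 library can set the direction of a difference of this size. Across DESeq2, the likelihood ratio test, limma-voom, RLE factors, library totals, TMM without the members, the authors' filter and no filter, 0 members were called and their median log2 change lay between -0.0539 and -0.0475. The number of genes called over the whole table, 3 in the test reported, was 24 with DESeq2, 101 with the likelihood ratio test, 191 without a filter and 2 with limma-voom. Leaving out 1 library gave 41 to 365 called genes, 0 to 8 called members, a median of the members from -0.125 to 0.0181, and a difference in their share of gene counts from -0.204 to 0.049 percentage points, both above 0 only without WT replicate 1. The cause was not tested.

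The replicate numbers pair nothing by the labels. With a replicate block 27 genes and 0 members were called, and the median of the members was -0.0486. Differences of replicate 1 from replicate 2 in WT and in KO had a correlation of 0.07 over 11057 genes and of -0.07 over the members, with only 2 pairs.

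The direction of several named members turned when 1 library was left out, among them Rpl36a, Rpl22 and Rpl11, which lay farther from 0 than the median of the members. The log2 change ran from -0.0327 to 0.195 for Rpl22l1, -0.206 to 0.0649 for Rpl11, -0.213 to 0.0386 for Rpl36a, -0.0870 to 0.129 for Rpl3 and -0.0724 to 0.0506 for Rpl7. It ran from -0.0776 to 0.0865 for Rpl10, -0.176 to 0.000172 for Rpl22, -0.0797 to 0.0618 for Rpl39, -0.0871 to 0.124 for Rps4x and -0.134 to 0.00676 for Rplp0. It ran from -0.10 to 0.10 for Rpsa, -0.0920 to 0.106 for Rps6 and -0.10 to 0.10 for Rpl5. For Rps3a1 it ran from -0.183 to 0.138 and for Rpl35 from -0.129 to 0.0964. Rpsa, at -0.00, was at 0.00143 with library totals, 0.00186 with limma-voom and 0.00231 with the replicate block. Rpl5, at 0.00, was at -0.00379 with TMM without the members, -0.000542 with the authors' filter and -0.00414 without a filter. Among the other lists, Rack1 ran from -0.0737 to 0.0847, Myc from -0.258 to 0.0708 and Larp1 from -0.0644 to 0.0937 when 1 library was left out. The other genes with a log2 change in the text kept their direction in every alternative listed. Leaving out Rps19bp1 and the row labelled Rpl24, an alternative chosen after seeing the data, left the median at -0.05.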

Other observations

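Rows whose symbol carries -ps, the annotated pseudogenes of ribosomal proteins, numbered 246, of which 66 had at least 10 counts over the 4 libraries. They held 6294 counts together, 0.198 to 0.215% as many as the 82 members. Rps27rt, a retrogene copy of Rps27, had 54, 51, 64 and 51 counts in WT 1, WT 2, KO 1 and KO 2. Rpl37rt, a retrogene copy of Rpl37 that the authors' deposited table calls Gm13826, stood at 10.9, 7.48, 7.72 and 10.5 CPM, so that both replicate 1 of WT and replicate 2 of KO were high. These copies were named after their values were seen.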
